A study of Mus musculus with 8 samples.

Results

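The Rab GTPase family of the mouse was followed in RNA-seq of the pineal gland, the melatonin-producing gland at the roof of the brain. Members were the protein-coding rows of the deposited FPKM table whose gene name is Rab, a number and at most a letter and a further digit, and this rule took 59 of 21980 protein-coding rows. FPKM scales the fragments of a gene to its transcript length and to the mapped fragments of the library, so that levels of different genes can be set side by side. The groups were wild type (WT) mice of the C57BL/6 strain, with 4 libraries numbered 11, 21, 22 and 23, and 5xFAD mice, with 4 libraries numbered 1, 2, 3 and 21. The transgenes of the 5xFAD line, on a B6.Cg background, include human APP with the Swedish, Florida and London mutations under the mouse Thy1 promoter, which is active mainly in neurons, and the line serves as a model of amyloid deposition in Alzheimer's disease. All mice were males of 5 months killed at zeitgeber time 0.5 h, just after lights on, and every library pooled the glands of 5 to 7 of them. The WT mice came from another supplier than the 5xFAD mice, so that supplier and genotype cannot be told apart. Series of values below are given in the order of these library numbers.

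Rab proteins are small GTPases that mark the membranes of the cell and direct vesicle traffic. A prenyl tail anchors them in the membrane, exchange factors load them with GTP, the active form recruits effectors such as tethers and motor adaptors, and GTPase-activating proteins switch them off. Each Rab has a preferred compartment: Rab1 and Rab2 serve the path between endoplasmic reticulum and Golgi, Rab5 the early endosome, Rab11 recycling, Rab7 the late endosome and lysosome, and Rab3 and Rab27 regulated secretion. Pinealocytes, the main cells of the gland, are related to photoreceptors and carry synaptic ribbons and microvesicles.

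The libraries differed in ways that the groups do not explain. All 16 pinealocyte markers were above 0 in every library, with a summed level of 2052 to 4251 FPKM in WT and 2981 to 4649 FPKM in 5xFAD, so that the labelled tissue was present throughout. On the first principal component of all tested genes, which held 38% of the variance, WT-22 and 5xFAD-21 lay together at 41.7 and 39.6, away from WT-11 at −51.2 and WT-21 at −43.1. WT-22 had 13.3 FPKM of Xist, an RNA of female cells, where the other libraries had at most 0.040 FPKM, while the 4 Y-linked genes looked at were present in WT-22 as well, so this library goes against its male label in part. 5xFAD-2 held brown fat markers (2002 FPKM over 8 genes, against 40.8 to 114 FPKM elsewhere), and 5xFAD-1 had the lowest choroid plexus markers. In the read statistics of the study, the share of unread bases was low in WT-11 and in the 5xFAD libraries except 5xFAD-21, and high in the remaining ones, and the GC rate of the libraries parted the groups fully, so that a difference that follows GC rate cannot be told apart from genotype. In pooled tissue, fewer cells of a type and less RNA per cell cannot be told apart either.

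The 4 Rab genes with an unadjusted p under 0.05 in the comparison of the groups were Rab5a, Rab27a, Rab40b and Rab30, and none passed after adjustment. The 250 bases before the RefSeq start of the first 3 are shown. The windows are read 5′ to 3′ on the strand of the gene in GRCm38.p6. Capitals mark matches to an E-box (CACGTG), a full cAMP response element (TGACGTCA) or a GC box (GGGCGG or CCGCCC).
Rab5a, chr17:53478984-53479233, plus strand: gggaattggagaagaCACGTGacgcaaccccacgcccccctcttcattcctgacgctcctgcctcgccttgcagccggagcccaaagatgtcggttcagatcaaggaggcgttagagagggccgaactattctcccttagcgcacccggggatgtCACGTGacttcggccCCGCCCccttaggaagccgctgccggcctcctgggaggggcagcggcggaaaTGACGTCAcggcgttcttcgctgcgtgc
Rab27a, chr9:73044560-73044809, plus strand: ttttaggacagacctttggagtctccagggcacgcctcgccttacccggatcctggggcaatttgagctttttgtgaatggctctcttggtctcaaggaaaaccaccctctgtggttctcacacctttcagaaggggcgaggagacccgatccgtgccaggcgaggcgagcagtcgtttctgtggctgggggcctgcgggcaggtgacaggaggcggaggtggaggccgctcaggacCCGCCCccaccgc
Rab40b, chr11:121388252-121388501, minus strand: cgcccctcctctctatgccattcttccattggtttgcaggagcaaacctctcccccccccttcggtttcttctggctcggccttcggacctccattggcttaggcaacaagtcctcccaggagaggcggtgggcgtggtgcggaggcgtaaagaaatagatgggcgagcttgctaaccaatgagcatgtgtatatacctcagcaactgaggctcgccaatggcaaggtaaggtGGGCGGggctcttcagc
The Rab5a window held 2 E-boxes, a full cAMP response element and a GC box, and those of Rab27a and Rab40b held 1 GC box each. The bases after the RefSeq start were found in a GENCODE M21 transcript of Rab5a and of Rab40b. They were not found for Rab27a, which begins at 73044854 in that annotation, so its window is less certain.

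Windows of this kind existed for 48 members (60 windows, since some genes have several starts). E-boxes, which the clock factors CLOCK and BMAL1 can bind, were in 5 of 60 Rab windows (8.33%) and in 6.63% of the 21263 windows of all protein-coding genes, and the members were Rab5a, Rab20, Rab21, Rab23 and Rab27a, the last through another of its starts. The full cAMP response element was in 2 windows (3.33%), those of Rab5a and Rab25, against 1.92% of all. TAATCC or GGATTA, the core bound by Crx and Otx2 in pinealocytes and photoreceptors, was in 3 windows (5%) against 5.82%. The GC box was in 40 windows (66.7%) against 42.6%. Both strands were searched, and a match is a run of letters, not a measured site of binding. Rab30 is named only.

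Rab transcripts of the housekeeping routes stood at the top of the family together with Rab3a, a Rab of synaptic and secretory vesicles. Of the 59 members, 51 reached 1 FPKM as a mean over all 8 libraries and were tested, 26 had over 10 FPKM and 7 had over 50 FPKM. The summed FPKM of the family was 997 to 1111 in WT and 1040 to 1183 in 5xFAD (1051 ± 48.4 and 1124 ± 65.5, SD, n = 4 each), and the 10 most abundant members held 54.5 to 59.9% of it. The family took 0.285 to 0.304% of all protein-coding FPKM in WT and 0.302 to 0.335% in 5xFAD. These ranges overlapped. Ttr, an abundant choroid plexus transcript listed at 0 throughout 5xFAD, is part of that total, and without it the shares were 0.301 to 0.312% and 0.302 to 0.335%.

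**Figure D1:**
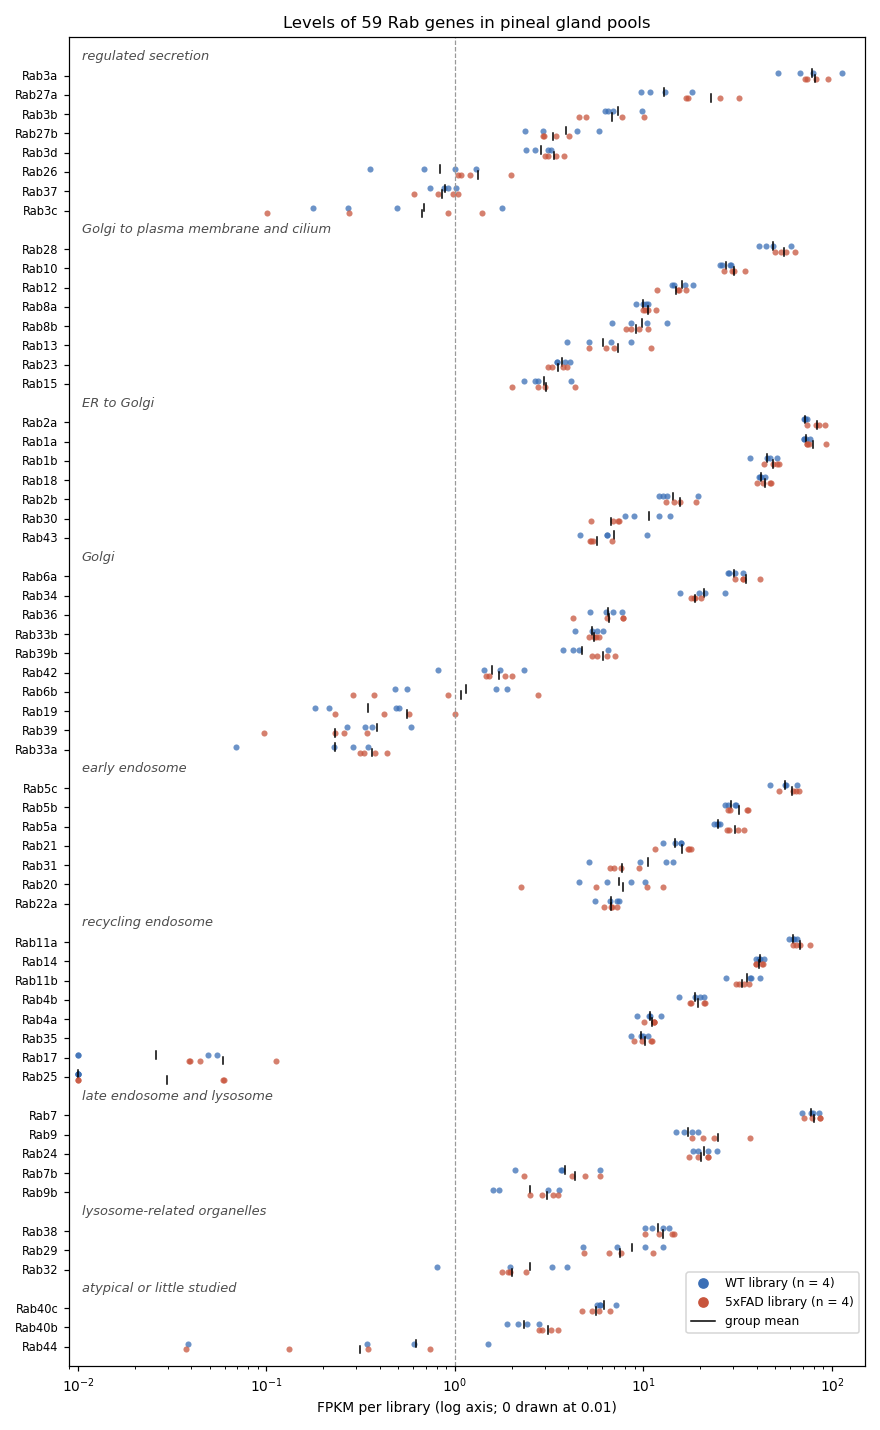
FPKM of the 59 Rab genes in each of 4 WT and 4 5xFAD libraries on a log axis, grouped by the compartment each Rab serves, with a bar for each group mean and a dashed line at 1 FPKM. The groups lie on top of each other for most genes, and the levels run from Rab3a at a mean of 79.5 FPKM down to Rab17 and Rab25, which are listed at 0 in some libraries.

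The comparison of 5xFAD with WT asked whether the pineal transcriptome differs in this model. For most Rab genes the differences were small against the spread between libraries. Rab5a, Rab27a, Rab30 and Rab40b passed an unadjusted threshold, a share of the members no larger than that of all genes tested. At an adjusted p under 0.05, 0 of the 51 tested members differed (limma, Benjamini-Hochberg over 13094 protein-coding genes), where 0.0382% of all genes tested did (0.0305% higher and 0.00764% lower). With the fit kept to genes above 0 in every library, 0 genes passed. At an unadjusted p under 0.05 stood 4 members (7.84%), 3 higher and 1 lower in 5xFAD, beside 7.95% of all genes tested (4.6% higher and 3.35% lower), a share near the background. The groups did not overlap for 2 members (3.92%), Rab5a and Rab30, beside 4.34% of all genes tested (2.11% higher and 2.23% lower). When all libraries were brought to the same protein-coding total, 5 members were higher and 1 lower, and over all genes the split moved from 602 higher and 439 lower to 887 and 217.

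The fitted log2 fold changes, here and below of FPKM + 0.1 and 5xFAD over WT, lay between −0.64 and 0.81. Their median was 0.07 over the 51 members and −0.01 over all genes tested, and 33 members (64.7%) lay above 0 where 48.7% of all genes did. Of the 51 members, 42 had a log2 fold change within 0.3 of 0. The median within-group SD of log2(FPKM + 0.1) was 0.197 for members and 0.256 for all genes tested.

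**Figure D2:**
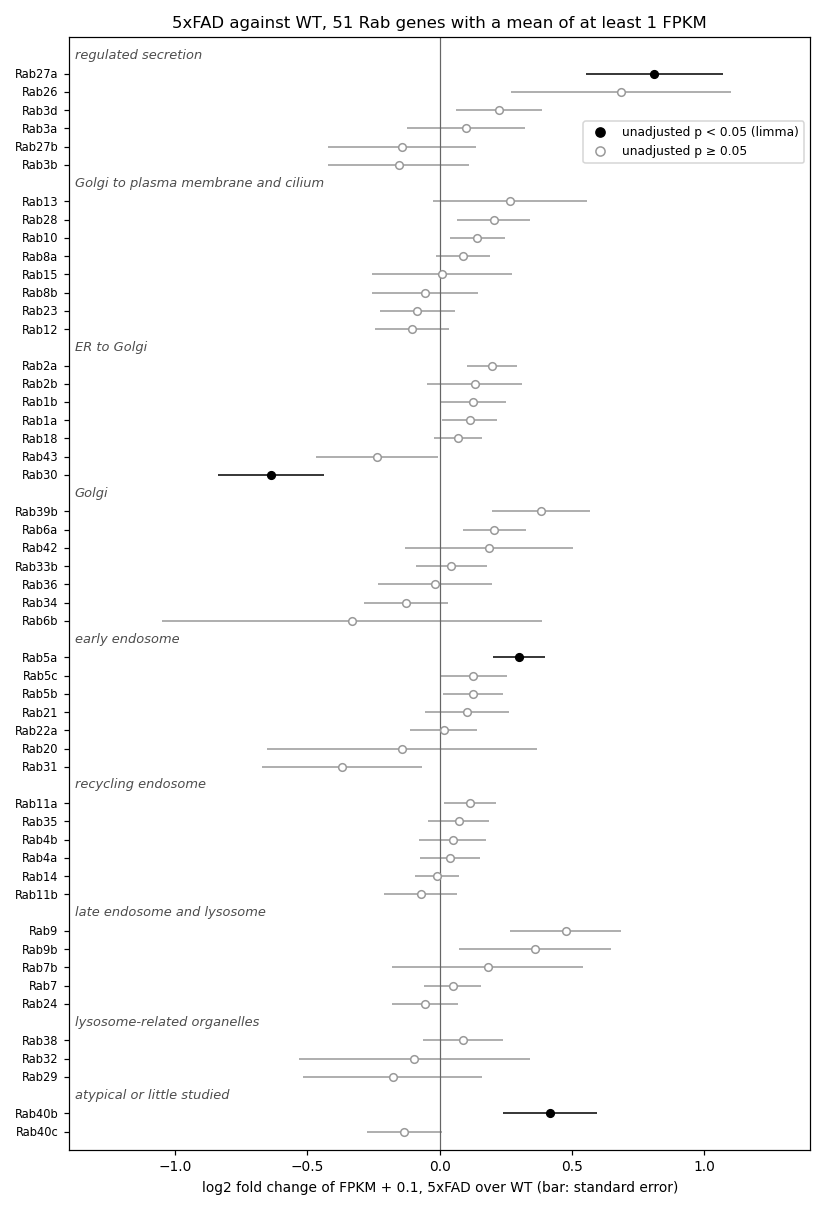
Log2 fold change of FPKM + 0.1 in 5xFAD over WT (4 libraries each) with its standard error for the 51 tested Rab genes, by compartment. Filled points mark the 4 genes with an unadjusted p under 0.05 from limma, Rab27a, Rab5a and Rab40b to the right of 0 and Rab30 to the left, and none passed after adjustment over all genes.

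The Rabs of regulated secretion included both the most abundant member and the one with the largest fitted fold change. Rab3a (ENSMUSG00000031840, chromosome 8, 70754679 to 70758677 of GRCm38, plus strand), which holds synaptic and dense-core vesicles ready for release, had 51.8, 68.0, 113 and 79.0 FPKM in WT and 95.3, 71.9, 73.8 and 82.6 FPKM in 5xFAD. WT-11 was lowest and WT-22 highest, so the WT libraries spanned all of the 5xFAD values, and the log2 fold change was 0.10 (standard error 0.22, adjusted p = 0.909 from limma). Its direction turned when WT-11 was left out (−0.08). Rab3a was also lowest in the libraries with the least pinealocyte marker RNA, WT-11 and WT-21, whose part in its level was not tested.

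Rab27a (ENSMUSG00000032202, chromosome 9, 73044854 to 73097629, plus strand) works in the docking of secretory granules, melanosomes and exosome-bearing endosomes at the plasma membrane. It had 13, 9.74, 18.1 and 10.8 FPKM in WT and 32.2, 25.6, 17.2 and 16.8 FPKM in 5xFAD. The highest values were those of 5xFAD-1 and 5xFAD-2, and the groups overlapped through WT-22 alone, which lay above 5xFAD-3 and 5xFAD-21. The sum of the 16 pinealocyte markers went with Rab27a in part. It was 2158, 2052, 4251 and 2960 FPKM in WT and 4649, 4047, 2981 and 3260 FPKM in 5xFAD. WT-22 was the highest WT library and 5xFAD-1 and 5xFAD-2 the highest 5xFAD libraries for the sum and for Rab27a. The place of 5xFAD-2 in the sum rested largely on Tph1, at 1630, 1900, 741 and 737 FPKM in 5xFAD. Sag (635 FPKM), Gngt2 (395 FPKM), Otx2, Neurod1, Lhx4, Pde6b and Bsx were lowest in 5xFAD-2 among 5xFAD. Besides Tph1, the low markers Aanat (34.8 FPKM) and Asmt (13.6 FPKM) were highest there. The remaining markers, such as Rom1 (320 FPKM), were neither highest nor lowest in 5xFAD-2. The part of these markers in the difference of Rab27a was not tested. The log2 fold change was 0.81 (standard error 0.26), with an unadjusted p of 0.0127 and an adjusted p of 0.559 from limma. With single libraries left out it ran from 0.63, without 5xFAD-1 (adjusted p = 0.753, limma), to 0.99, without WT-22 (adjusted p = 0.124, limma). Without both WT-22 and 5xFAD-21, an omission chosen after seeing the data, it was 1.12 (adjusted p = 0.122, limma). With the set of unread bases as a term the unadjusted p of limma was 0.057. Within the low set, the single WT library had 13 FPKM against 17.2 to 32.2 FPKM in 3 5xFAD libraries. Within the high set, the single 5xFAD library had 16.8 FPKM and lay inside the WT range of 9.74 to 18.1 FPKM. A processed pseudogene shares 149 exon bases with Rab27a on the same strand and had a mean of 0.310 FPKM.

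The other Rabs of secretion did not reach an unadjusted p of 0.05 in limma. Rab27b, the close relative of Rab27a, had 2.34 to 5.81 FPKM in WT and 2.92 to 4.01 FPKM in 5xFAD, a log2 fold change of −0.14. Rab3b ranged from 6.25 to 9.77 FPKM in WT and from 4.56 to 10.1 FPKM in 5xFAD, and Rab3d from 2.39 to 3.22 and from 3.01 to 3.78 FPKM. Rab26, which links synaptic vesicles to autophagy, was a low and variable member with 0.356, 0.682, 1.01 and 1.29 FPKM in WT and 1.04, 1.21, 1.08 and 1.99 FPKM in 5xFAD. Rab26 passed the filter of 1 FPKM through 5xFAD alone (mean 1.33 FPKM, against 0.834 FPKM in WT), so that its log2 fold change of 0.68 is a description, and it was 0.38 without WT-11. The antisense gene Rab26os, for which no exon bases shared with Rab26 were found, had far more signal, 45.9 to 97.0 FPKM. Traf7 shares 267 exon bases with Rab26 on its own strand, so that the level of Rab26 is uncertain. Rab37 (0.606 to 1.04 FPKM) and Rab3c (0.101 to 1.79 FPKM) had means under 1 FPKM and were not tested.

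**Figure D3:**
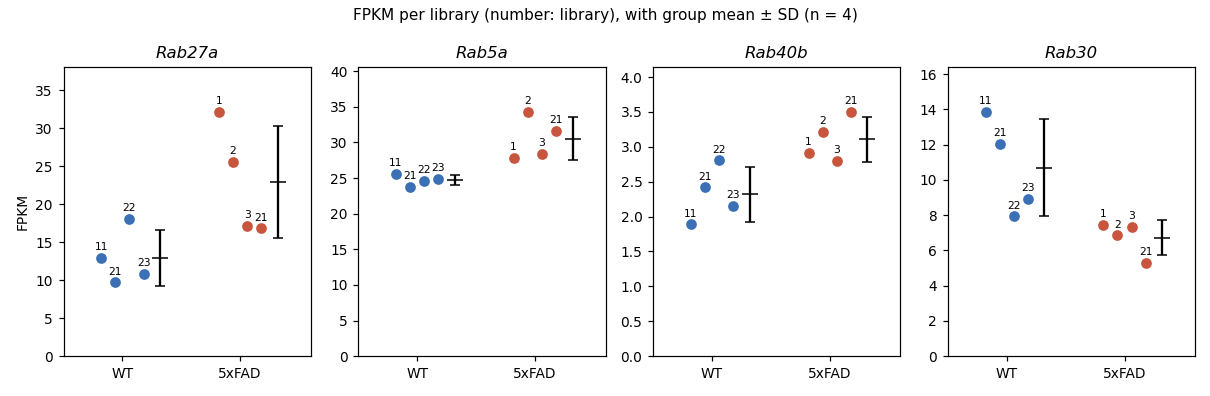
FPKM of Rab27a, Rab5a, Rab40b and Rab30 in each library (the number beside a point is that of the library), with the group mean and SD (n = 4 libraries). The groups are apart for Rab5a and Rab30, and touch for Rab27a, through WT-22 at 18.1 FPKM, and for Rab40b, through WT-22 at 2.81 FPKM and 5xFAD-3 at 2.80 FPKM.

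Among the Rabs of the early endosome, Rab5a (ENSMUSG00000017831, chromosome 17, 53479234 to 53507680, plus strand), which drives the fusion of endocytic vesicles with early endosomes, was the member with the least spread among those past an unadjusted p of 0.05. It had 25.6, 23.8, 24.7 and 24.9 FPKM in WT and 27.8, 34.3, 28.4 and 31.6 FPKM in 5xFAD. Every 5xFAD library lay above every WT library, which fixes the same order within the low and the high set of unread bases. The low set stood at 25.6 FPKM in WT-11 against 27.8 to 34.3 FPKM. The high set stood at 23.8 to 24.9 FPKM against 31.6 FPKM in 5xFAD-21. With a single library of one group in each, the sets are no separate check. The log2 fold change was 0.30 (standard error 0.10), with an unadjusted p of 0.0135 and an adjusted p of 0.568 from limma. It was 0.30 without WT-22 (adjusted p = 0.220, limma). Without both WT-22 and 5xFAD-21 it was 0.28, with an unadjusted p of 0.058 (limma). Pp2d1, which shares 221 exon bases with Rab5a on the other strand, had a mean of 0.004 FPKM.

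The 2 paralogues of Rab5a on the same membrane had smaller fitted differences. Rab5c, the most abundant of the 3, had 47.1, 56.4, 64.9 and 57.3 FPKM in WT and 66.8, 64.6, 52.3 and 62.3 FPKM in 5xFAD, a log2 fold change of 0.13 with overlapping groups. Rab5b had 27.2 to 31.0 FPKM in WT and 28.1 to 35.8 FPKM in 5xFAD, also 0.13. Rab21, a Rab of integrin traffic, and Rab22a, of early and recycling endosomes, lay at 0.10 and 0.01. Rab31, which acts between Golgi and endosomes, had 5.14 to 14.4 FPKM in WT and 6.66 to 9.44 FPKM in 5xFAD. WT-22 held the lowest Rab31 value, and without it the log2 fold change of −0.37 became −0.68 (unadjusted p = 0.0058, adjusted p = 0.140, limma). It was −0.19 without WT-21 and −0.23 without WT-11. In the fit without WT-22, used here and for members below, 18.1% of all genes tested had an unadjusted p under 0.05 (limma).

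Recycling Rabs reached from abundant members to Rab17 and Rab25 near 0. Rab11a, which returns cargo from the recycling endosome to the surface, had 62.2, 58.9, 65.4 and 62.7 FPKM in WT and 64.5, 76.9, 62.0 and 67.3 FPKM in 5xFAD. Rab14, of Golgi to endosome traffic, had 43.4, 40.9, 41.5 and 39.5 FPKM in WT and 39.4, 42.4, 39.6 and 42.8 FPKM in 5xFAD, the smallest spread of the 51 tested members (within-group SD 0.059 on the log2 scale) and a log2 fold change of −0.01. Rab11b, Rab4a, Rab4b (which shares 1280 exon bases with another protein-coding row) and Rab35 lay between −0.07 and 0.07, and Rab17 and Rab25, Rabs of polarised epithelia, were at most 0.112 FPKM in any library.

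Rab7, which recruits the machinery for fusion of late endosomes with lysosomes, had 69.2, 77.8, 84.9 and 79.0 FPKM in WT and 86.0, 86.6, 78.6 and 70.7 FPKM in 5xFAD. The groups overlapped widely, and its log2 fold change of 0.05 (adjusted p = 0.910, limma) changed sign after quantile normalization (−0.04). Rab9, of the route from late endosome to trans-Golgi, had 15 to 19.4 FPKM in WT and 18, 20.7, 23.6 and 36.8 FPKM in 5xFAD in rising order. Its log2 fold change of 0.48 (unadjusted p = 0.051, limma) was 0.27 without 5xFAD-21 and 0.61 without 5xFAD-3. Rab9b, its paralogue and like it on the X chromosome, had 1.58 to 3.55 and 2.50 to 3.53 FPKM, and Rab24, a Rab linked to autophagy, 18.3 to 24.4 and 17.5 to 22.1 FPKM. Rab24 shares 1258 exon bases with Prelid1 on the other strand, and the use of strand in the counting is not given in the sources used here.

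The path between endoplasmic reticulum and Golgi held the largest part of the Rab signal, 25.2% in each group. Rab2a, of Golgi tethering and retrograde traffic, had 71.2, 72.2, 72 and 73.5 FPKM in WT and 82.1, 92.0, 73.4 and 84.9 FPKM in 5xFAD. The WT libraries were tightly grouped, and 5xFAD-3 lay just below the highest of them. Its log2 fold change was 0.20 (unadjusted p = 0.071, limma). Rab1a, which with Rab1b tethers vesicles bound for the Golgi, had 76.2, 73.2, 71.1 and 70.9 FPKM in WT and 74.1, 93.4, 75.6 and 73.4 FPKM in 5xFAD. Rab1b had 36.6, 47.2, 51.2 and 45.0 FPKM in WT and 51, 52.2, 43.4 and 48.7 FPKM in 5xFAD. Both Rab1 genes overlapped between the groups. Rab18, of endoplasmic reticulum and lipid droplets, had 43.9, 41.6, 41.0 and 42.2 FPKM in WT and 46.7, 47.4, 40.0 and 43.2 FPKM in 5xFAD, a log2 fold change of 0.07. Rab2b, the less abundant relative of Rab2a, had 12.1 to 19.4 FPKM in WT and 13.1 to 19.1 FPKM in 5xFAD.

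Rab30 (ENSMUSG00000030643, chromosome 7, 92741603 to 92844535, plus strand), a Rab of the Golgi counted here with the path from the endoplasmic reticulum, was the one member below 0 with an unadjusted p under 0.05. It had 13.9, 12, 7.94 and 8.92 FPKM in WT and 7.44, 6.86, 7.32 and 5.28 FPKM in 5xFAD. All 5xFAD values lay below all WT values, though the gap was narrow, between WT-22 at 7.94 FPKM and 5xFAD-1 at 7.44 FPKM. The 6 fibroblast markers, all above 0 everywhere, summed to 4421, 3525, 482 and 2060 FPKM in WT and to 918, 1294, 904 and 363 FPKM in 5xFAD, in WT highest in WT-11 and lowest in WT-22 and in 5xFAD lowest in 5xFAD-21, as for Rab30. The smooth muscle and osteoblast markers had their lowest WT sum in WT-22 and their lowest 5xFAD sum in 5xFAD-21 too (Dmp1, an osteocyte gene, is listed at 0 in WT-22). So did the endothelial, bone marrow neutrophil, microglia and macrophage, and astrocyte markers (Cebpe, a neutrophil gene, is listed at 0 in 5xFAD-21). The pattern was thus not particular to fibroblast markers. The part of all these markers in the difference of Rab30 was not tested. The log2 fold change was −0.64 (standard error 0.20), with an unadjusted p of 0.0114 and an adjusted p of 0.559 from limma, and it was −0.88 with the set of unread bases as a term (adjusted p = 0.382, limma). Since the groups did not overlap, the same order is fixed within the sets of unread bases. Rab30 stood at 13.9 FPKM in WT against 6.86 to 7.44 FPKM in the low set. In the high set it stood at 7.94 to 12 FPKM against 5.28 FPKM in 5xFAD. With single libraries left out the log2 fold change ran from −0.77, without WT-22 (adjusted p = 0.123, limma), to −0.50, without WT-11 (adjusted p = 0.776, limma). The unadjusted p of Rab30 in limma was under 0.05 in each of the 23 alternatives run. Rab43, of the same group, lay at −0.24 and shares 4164 exon bases on its own strand with another protein-coding row, so its level is uncertain.

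Of the 10 members counted as Golgi Rabs, which leave out Rab30, 7 were tested. Rab6a, the main Rab of traffic at the Golgi, had 28.0 to 33.8 FPKM in WT and 30.6 to 41.8 FPKM in 5xFAD, a log2 fold change of 0.21, and it shares 708 exon bases with Mrpl48 on the other strand. Rab39b, an X-linked gene mutated in intellectual disability and early parkinsonism, had 3.72 to 6.49 FPKM in WT and 5.33 to 7.08 FPKM in 5xFAD. Its log2 fold change of 0.38 (unadjusted p = 0.072, limma) was 0.54 without WT-22, its highest WT library (unadjusted p = 0.0065, adjusted p = 0.143, limma). It was 0.28 without WT-21 (unadjusted p = 0.185, limma). Rab34 and Rab36 lay at −0.13 and −0.02 and Rab33b and Rab42 at 0.04 and 0.19. Rab19, Rab33a and Rab39 had 0.069 to 0.995 FPKM and were not tested.

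The log2 fold changes of the 8 Rabs on the route from Golgi to plasma membrane and cilium lay between −0.10 and 0.27. Rab28, which acts in photoreceptor outer segments and cilia and is mutated in cone-rod dystrophy, was the seventh most abundant member, at 41.2, 44.9, 60.4 and 48.9 FPKM in WT and 63.3, 53.5, 49.9 and 56.9 FPKM in 5xFAD. WT-22 again lay among the 5xFAD libraries, and the log2 fold change of 0.20 was 0.31 without it (unadjusted p = 0.030, adjusted p = 0.234, limma). It was 0.13 without WT-11 and 0.14 with the GC trend removed. Rab8a and Rab8b, of ciliary and basolateral delivery, lay at 0.09 and −0.06, and Rab10, of exocytosis, at 0.14. Rab12, of receptor degradation, lay at −0.10, Rab13, of tight junctions, at 0.27, Rab15 at 0.01 and Rab23, a regulator of hedgehog signalling, at −0.08.

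Rab29, Rab32 and Rab38 serve lysosome-related organelles. Rab38 was the highest of the 3, with 10.1 to 13.7 FPKM in WT and 10.2 to 14.5 FPKM in 5xFAD. Rab29, which recruits the kinase Lrrk2 to membranes, had 4.80 to 12.7 and 4.83 to 11.2 FPKM, and its lowest values in the groups were those of WT-22 and 5xFAD-21. Rab32 had 3.94, 3.27, 0.799 and 1.97 FPKM in WT and 1.91, 1.78, 1.95 and 2.39 FPKM in 5xFAD, so that WT-22 alone lay below 1 FPKM.

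Rab40b (ENSMUSG00000025170, chromosome 11, 121356125 to 121388251, minus strand) encodes a Rab with a SOCS box that works with a ubiquitin ligase. It had 1.89, 2.42, 2.81 and 2.16 FPKM in WT and 2.91, 3.22, 2.80 and 3.51 FPKM in 5xFAD. WT-22 and 5xFAD-3 nearly coincided, and the other values of the groups were apart. The log2 fold change was 0.42 (standard error 0.18), with an unadjusted p of 0.044 and an adjusted p of 0.617 from limma. It no longer passed an unadjusted 0.05 in 7 of the 8 fits that left out a library, where its log2 fold change was 0.33 to 0.46. The exception was the fit without WT-22 (0.51, unadjusted p = 0.019, adjusted p = 0.203, limma). Rab40c, with the same SOCS box, lay at −0.13. Rab44, a large Rab of immune cells, had 0.037 to 1.5 FPKM and was not tested.

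Ratios of paralogues were taken within each library as differences of log2(FPKM + 0.1), so that the scaling of libraries cancels except for the 0.1 added, which weighs most on low genes. Of 15 pairs considered, 13 had both genes at a mean of at least 1 FPKM. The log2 ratio of Rab40b to Rab40c was −1.59, −1.25, −1.31 and −1.36 in WT and −0.97, −0.54, −0.91 and −0.90 in 5xFAD. The groups were apart, by 0.55 on average (exact two-sided permutation p = 0.0286, the smallest that 4 against 4 libraries allow, and 0.371 after Benjamini-Hochberg adjustment over the 13 pairs). The log2 ratio of Rab27a to Rab27b was 1.75 ± 0.74 in WT and 2.71 ± 0.39 in 5xFAD (SD, n = 4 each; exact permutation p = 0.0857, adjusted p = 0.557), and the groups overlapped through WT-22 alone. The ratios of Rab5a to Rab5b and to Rab5c differed by 0.17 each (exact permutation p = 0.171 and 0.343). Over the remaining 9 pairs the exact permutation p was 0.286 to 0.971, and their spread differed widely. Rab4a to Rab4b stood at −0.79 ± 0.07 in WT and −0.80 ± 0.12 in 5xFAD (SD, n = 4 each), while Rab6a to Rab6b stood at 4.81 ± 0.97 and 5.35 ± 1.25.

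The 5 most variable members were Rab6b, Rab20, Rab32, Rab7b and Rab26. Rab6b, a neuronal Rab of the Golgi, had the largest within-group SD (1.13 on the log2 scale), with 0.558, 1.89, 0.482 and 1.66 FPKM in WT and 0.374, 0.920, 2.74 and 0.290 FPKM in 5xFAD. Its highest value was that of 5xFAD-3 and its lowest that of 5xFAD-21. The 10 neuron markers, of which 6 were above 0 everywhere, summed to 314 to 888 in WT and 571 to 715 FPKM in 5xFAD. The sum was highest in WT-22, where Rab6b was lowest among WT, and Snap25 made up most of it there (692 FPKM). Gad1, Gad2, Nefl, Nefm, Rbfox3 and Tac1 were low but highest in 5xFAD-3 (0.257 to 6.21 FPKM), as Rab6b was. Snap25, Syt1 and Slc17a7 were highest in WT-22 and Slc17a6 in 5xFAD-2. The part of neurons in the level of Rab6b was not tested. Rab20, a Rab of endosomes and phagosomes, came next (SD 0.855), with 6.38, 8.61, 4.57 and 10.2 FPKM in WT and 2.25, 10.5, 5.63 and 12.7 FPKM in 5xFAD. The choroid plexus markers without Ttr and Otx2 summed to 620, 597, 328 and 607 FPKM in WT and to 53.7, 582, 507 and 810 FPKM in 5xFAD, lowest in 5xFAD-1 and highest in 5xFAD-21 as for Rab20. All 5 of these markers were above 0 in every library.

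Rab7b, a Rab of late endosomes in myeloid cells, had 3.67, 5.92, 2.09 and 3.70 FPKM in WT and 5.90, 4.91, 4.18 and 2.32 FPKM in 5xFAD. The 10 microglia and macrophage markers, all above 0 everywhere, summed to 107 to 262 FPKM in WT and 95.9 to 216 FPKM in 5xFAD. Rab7b and these markers were both lowest in WT-22 and 5xFAD-21. Within their groups, the fibroblast, endothelial, smooth muscle, osteoblast, astrocyte and neutrophil sums were lowest in these libraries too. Rab44 was highest in WT-11 (1.5 FPKM) and at 0.038 and 0.037 FPKM in WT-22 and 5xFAD-21. The 10 bone marrow neutrophil markers summed to 461 FPKM in WT-11 and to 20.9 and 23.8 FPKM in WT-22 and 5xFAD-21, and of these markers Cebpe was listed at 0 in some library. These marker lists were set beside the members after their values had been seen, and the part of other cells in the members' levels was not tested.

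**Figure D4:**
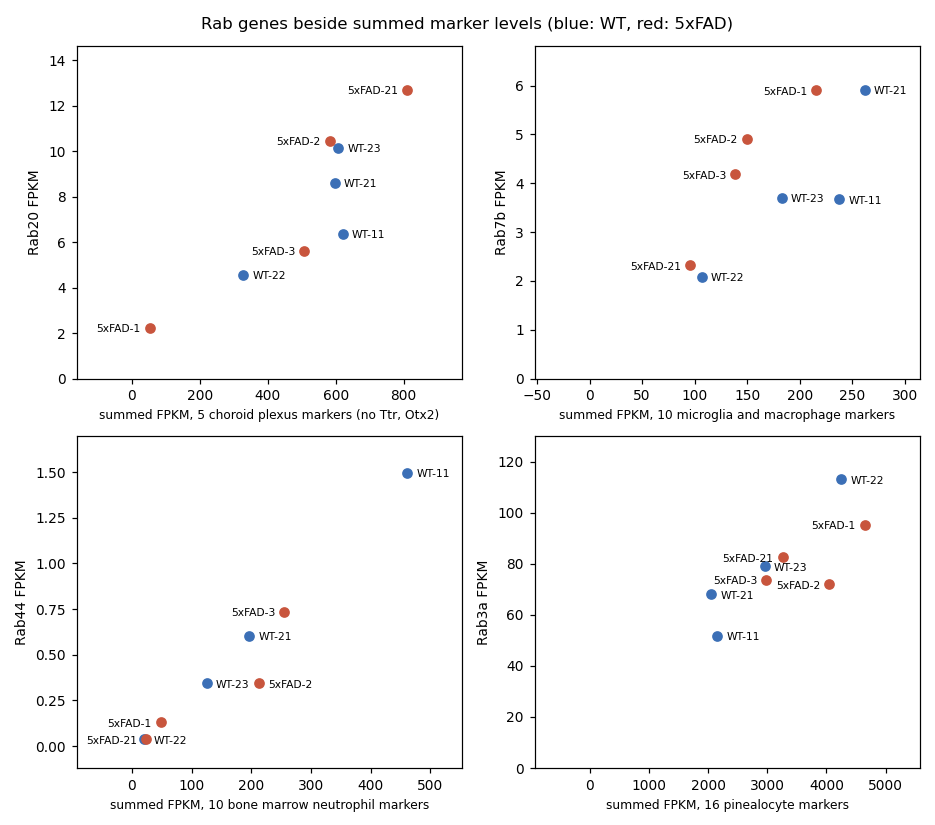
FPKM of Rab20, Rab7b, Rab44 and Rab3a against the summed FPKM of a marker list in the same library (4 WT and 4 5xFAD libraries). Rab20 runs from 2.25 FPKM in 5xFAD-1, where the choroid plexus markers sum to 53.7 FPKM, to 12.7 FPKM in 5xFAD-21, where they sum to 810 FPKM, and libraries of both groups are mixed along each panel.

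The genes that load, unload and read Rab proteins were described with the same fit. Of 157 listed genes 153 were found and 144 tested, and 8 were higher and 4 lower at an unadjusted p under 0.05 (8.33%, beside 7.95% of all genes tested), while 0 passed an adjusted p of 0.05 in limma. Their median log2 fold change was −0.08, and 52 of 144 lay above 0. The groups did not overlap for 6 of the 144 (4.17%, beside 4.34% of all genes tested). Rabep1, Rabl3 and Sytl5 were higher in 5xFAD. Sbf2, Tbc1d13 and Tbc1d10b were lower, and these last 3 were picked out after their values were seen. Sytl5 is part of these counts though it passed the filter through 5xFAD alone (mean 1.46 FPKM, against 0.848 FPKM in WT). Among 10 genes of Rab chaperones and prenylation, 7 lay above 0 and 2 had an unadjusted p under 0.05 (20%, beside 7.95%). These were Rabggtb, the catalytic subunit of the Rab prenyltransferase, with 30.7, 29.7, 41.2 and 35.7 FPKM in WT and 43.6, 47.7, 37.7 and 43.0 FPKM in 5xFAD (log2 fold change 0.33, adjusted p = 0.601 from limma), and the escort protein gene Chml (0.39, adjusted p = 0.598). WT-22 lay above 5xFAD-3 for Rabggtb. The main escort protein gene Chm lay at −0.01.

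Exchange factors and GTPase-activating proteins lay mostly below 0, where 48.7% of all genes tested lay above it. Of 37 tested exchange factors 12 lay above 0 (median −0.11), with Rabgef1, a Rab5 exchange factor, at 0.31 and Rin3, another one, at −0.69 (adjusted p = 0.618 and 0.615, limma). Of 40 GTPase-activating proteins 11 lay above 0 (median −0.10), with Sgsm1 at 0.94 and Grtp1 at 0.66 as the ones with an unadjusted p under 0.05 (5%, beside 7.95% of all genes tested). Grtp1 had 25.1 FPKM in WT-22 and 10.5 to 15.7 FPKM in the other WT libraries, against 22.7 to 25.1 FPKM in 5xFAD. WT-22 was also the WT library with the highest pinealocyte marker sum, whose part was not tested.

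Among effectors, Rabep1, which binds Rab5 on early endosomes, had 36.4, 32.2, 39.5 and 37.1 FPKM in WT and 43.7, 43.0, 43.2 and 41.9 FPKM in 5xFAD. Its groups did not overlap, as those of Rab5a did not, and its log2 fold change was 0.25 (standard error 0.09, adjusted p = 0.597 from limma). Ocrl, a phosphatase of inositol lipids that binds several Rabs, lay at −0.35. It was the other one of the 17 tested endosomal effectors with an unadjusted p under 0.05 (11.8%, beside 7.95% of all genes tested). Of 10 tested effectors of Rab3 and Rab27, 1 had an unadjusted p under 0.05 (10%, beside 7.95% of all genes tested). This was Sytl5, a Rab27 effector, at 0.656 to 1.10 FPKM in WT and 1.12 to 1.80 FPKM in 5xFAD. Its WT mean of 0.848 FPKM lay under the filter of 1 FPKM, which it passed through 5xFAD alone. Nothing is therefore read from its difference or from this count. Of 21 Golgi, secretory and ciliary effectors 0 had an unadjusted p under 0.05, beside 7.95% of all genes tested. The most abundant were Optn (0.18) and Golga4 (−0.05).

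Rabl3, a Rab-like GTPase, had the smallest adjusted p among these genes. It had 5.41, 4.87, 6.80 and 6.51 FPKM in WT and 9.35, 8.09, 7.88 and 7.52 FPKM in 5xFAD, with every 5xFAD library above every WT library. Its log2 fold change was 0.48 (standard error 0.14, unadjusted p = 0.0085, adjusted p = 0.545 from limma). Cracr2a, a large Rab of immune cells, lay at −0.71 with overlapping groups. Ppm1h, a phosphatase that removes the phosphate that Lrrk kinases place on Rab proteins, had 19.1, 23.2, 14.8 and 19.4 FPKM in WT and 11.5, 10.4, 15.6 and 14.4 FPKM in 5xFAD (−0.56, adjusted p = 0.559, limma). The kinase genes Lrrk1 and Lrrk2 lay at −0.37 and −0.42, and 5xFAD-1 had 2.95 FPKM of Lrrk2 where 5xFAD-21 had 15 FPKM.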

How the data were processed

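RNA-seq of 8 pools of pineal glands was used. The deposited values are FPKM computed by the authors. Ribosomal RNA was removed from total RNA, stranded libraries were sequenced as paired reads, reads were trimmed with Trimmomatic and aligned to GRCm38 with STAR, and FPKM per gene came from Cuffnorm on GENCODE M17. Tool versions and the normalization chosen in Cuffnorm are not given in the sources used here, and a listed 0 may be a failed estimate. FPKM carry no fragment counts, so no counting interval is given. The table holds 53710 gene IDs, of which 53616 and all 59 members matched GENCODE M21.

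Here, log2(FPKM + 0.1) of the 13094 protein-coding genes with a mean of at least 1 FPKM was fitted with limma 3.58.1 in R 4.3.3 (lmFit, eBayes with a trend), 4 WT against 4 5xFAD libraries without covariates, and p values were adjusted over all genes (Benjamini-Hochberg). Paralogue ratios were compared by exact permutation (70 splits) with Python 3.11.15. Simulated data served as a check of the fit. The labels call the 4 pools of a group biological replicates, so p values measure the spread between pools of animals. Promoter windows are from RefSeq, GRCm38.p6. Part of the transgenic genotype of 5xFAD is not reported here.

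The members and the gene lists were chosen with earlier results of these data known. Values per library are given for the 10 most abundant members, members with an unadjusted p under 0.05 or no overlap, and the 5 most variable. Of each list of regulators up to 4 genes with an unadjusted p under 0.05, or otherwise the 2 most abundant, are named. Other members stand with ranges or fold changes, and Rab9, Rab31, Rab39b, Chm, Lrrk1, Lrrk2, Xist, Ttr and Rab26os were added once their values had been seen.

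The alternatives tried were a pseudocount of 0.01 or of 1, dropping the filter or raising it to 5 FPKM, values above 0 everywhere, median-ratio, quantile and equal-total scaling, the set of unread bases as a term, a replicate block, no trend, array weights, removal of the GC trend (lowess span 0.3) and leaving out libraries.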

Additional observations from a re-analysis of the deposited data

Results flagged for a closer look

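In 5 of 102 groups of 4 libraries a library stood far from the other 3 by Dixon's test, about the 1 in 20 that chance gives. Rab1a had 93.4 FPKM in 5xFAD-2 and 73.4 to 75.6 FPKM in the other 5xFAD libraries. Rab21 had 11.6 FPKM in 5xFAD-1, where the others of its group had 17.3 to 17.9 FPKM. Rab4a was lowest in 5xFAD-2 at 10.1 FPKM, against 11.3 to 11.4 FPKM. Rab43 was highest in 5xFAD-3 at 6.8 FPKM, against 5.21 to 5.40 FPKM. Rab40c had 7.12 FPKM in WT-22 and 5.71 to 5.90 FPKM in the other WT libraries.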

How the results depend on the processing

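In each of the 23 alternatives 0 Rab genes passed an adjusted p of 0.05, and the smallest adjusted p of a member was 0.122 (Rab27a without WT-22 and 5xFAD-21, limma). The count of all protein-coding genes past that threshold was 8 without the filter, 0 among genes above 0 in every library, 9 with array weights, 4 to 94 with single libraries left out (94 without WT-22) and 29 without WT-22 and 5xFAD-21. Rab genes higher at an unadjusted p under 0.05 numbered 5 at an equal protein-coding total, beside 887 of all 13094 genes tested. With single libraries left out they numbered 2 to 5, beside 298 to 1263 of all genes. Rab genes lower numbered 2 with the set of unread bases as a term (beside 914 of all genes) and 2 without WT-22 and 5xFAD-21 (beside 970). With single libraries left out 1 to 2 were lower, beside 213 to 1105 of all genes. Without WT-22, 7 of 51 members (13.7%) had an unadjusted p under 0.05, beside 18.1% of all genes, and without WT-22 and 5xFAD-21 5 members did (9.8%), beside 15.6%. Fold changes near 0 changed sign: Rab7 was −0.036 after quantile normalization, Rab14 0.0224 at an equal total and 0.00513 with array weights, Rab20 0.23 and Rab7b −0.0927 with the set term, and Rab7b −0.0233 with array weights. With single libraries left out, log2 fold changes ran from −0.076 to 0.30 for Rab3a, −0.00535 to 0.11 for Rab7, −0.0303 to 0.0143 for Rab14, −0.47 to 0.35 for Rab20, −0.073 to 0.45 for Rab7b, −0.54 to 0.19 for Rab32 and −0.91 to 0.0472 for Rab6b. Differences of paralogue ratios ran from −0.36 to 0.10 for Rab3a/Rab3d, −0.0624 to 0.30 for Rab8a/Rab8b, −0.0637 to 0.025 for Rab4a/Rab4b, −0.0886 to 0.17 for Rab2a/Rab2b, −0.0895 to 0.10 for Rab1a/Rab1b and −0.70 to 0.0626 for Rab32/Rab38. The cause of these shifts was not tested. With 3 libraries in a group the pair Rab40b/Rab40c had an exact permutation p of 0.0571, the smallest possible.

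Replicate numbers follow the order of the libraries, so WT-11 stands beside 5xFAD-1, WT-21 beside 5xFAD-2, WT-22 beside 5xFAD-3 and WT-23 beside 5xFAD-21. Deviations from the group means correlated at −0.040, 0.206, −0.342 and 0.242 in these pairs. For WT-21 and 5xFAD-21, which share a library number, the correlation was −0.314. Whether pools were handled in pairs cannot be told from these values. With the replicate number as a block, 2 of 51 Rab genes were higher and 1 lower at an unadjusted p under 0.05. Beside them, 388 of all 13094 genes tested were higher and 304 lower. The median log2 fold change of Rab genes was 0.07, and Rab5a and Rab40b had unadjusted p values of 0.052 and 0.099 (limma). The FPKM give no depth per gene, so whether low members such as Rab17 and Rab25 lack RNA was not detectable here.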
